A study of Homo sapiens with 8 samples.

Results

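The genes described here are 33 genes of antigen presentation by major histocompatibility complex (MHC) class I and class II molecules, chosen by name for their role in presentation. For each gene the brightest of the probe sets annotated to that gene alone was used, and 32 of the 33 had such a probe set, 16 in the class II pathway and 16 in the class I pathway, among 18231 genes measured in all. PSMB10, a subunit of the immunoproteasome, had no probe set of its own. Expression was measured on 8 arrays of JVM13, an established human B-cell line from a prolymphocytic leukaemia. A doxycycline-inducible construct expressed wild-type cyclin D1 in 3 samples and T286A cyclin D1, which the labels describe as a highly stable form, in another 3, while 2 control samples carried the vector without an insert (empty vector). All 3 groups, the controls included, received 0.1 µg/mL doxycycline, so no group was without the drug. The labels do not say how many cell populations stand behind each vector, how long induction lasted, or whether replicates were separate cultures, so p-values here rest on a spread among samples that may be technical.

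MHC class II molecules are pairs of an alpha and a beta chain (HLA-DR, HLA-DP and HLA-DQ) that B cells and other professional presenting cells load with peptides from the endosome and show to CD4+ T cells. The invariant chain CD74 occupies the groove until proteases such as CTSS cut it and HLA-DM exchanges the remnant for peptide, a step that HLA-DO restrains. Transcription of these genes depends on the RFX factors and NF-Y, bound to the X and Y boxes of the promoters, and on the coactivator CIITA. MHC class I molecules pair a heavy chain with B2M, take peptides cut by the proteasome and pumped by TAP1 and TAP2, and show them to CD8+ T cells; NLRC5 is their coactivator.

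The promoters of the class II chains are shown first because 3 of these genes were the members called below, and HLA-DPA1 is shown as a class II chain that was not called. Each stretch holds the 150 bases before the transcription start, 5′ to 3′ on the gene's strand, from RefSeq on GRCh38.p14. These are reference sequences and were not read from JVM13. Capitals mark matches to the X box letters AGNNACNGA, to the Y box letters CTGATTGG, or to their core ATTGG, on either strand. The stretches lie on chromosome 6 at chr6:32589849-32589998 (minus strand) for HLA-DRB1, chr6:32637256-32637405 (plus strand) for HLA-DQA1, chr6:32666658-32666807 (minus strand) for HLA-DQB1 and chr6:33073650-33073799 (minus strand, 1 of its 2 annotated starts) for HLA-DPA1.
HLA-DRB1: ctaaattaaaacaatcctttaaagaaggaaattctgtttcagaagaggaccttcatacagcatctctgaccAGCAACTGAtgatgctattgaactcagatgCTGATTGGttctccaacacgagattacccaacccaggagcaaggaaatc
HLA-DQA1: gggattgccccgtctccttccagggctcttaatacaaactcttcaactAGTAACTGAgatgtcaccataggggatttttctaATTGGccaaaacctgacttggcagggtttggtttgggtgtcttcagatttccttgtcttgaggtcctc
HLA-DQB1: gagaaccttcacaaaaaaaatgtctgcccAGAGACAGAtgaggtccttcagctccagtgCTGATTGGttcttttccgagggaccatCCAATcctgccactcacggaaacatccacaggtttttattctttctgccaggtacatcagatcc
HLA-DPA1: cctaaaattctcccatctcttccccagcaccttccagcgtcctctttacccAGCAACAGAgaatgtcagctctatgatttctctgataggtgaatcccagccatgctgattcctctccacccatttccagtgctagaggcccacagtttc
In HLA-DRB1 the X box match began 79 bases before the start and the Y box match 49 bases before it. In HLA-DQB1 these distances were 121 and 91 bases, and in HLA-DQA1 the X box match lay at 102 bases and the Y box core at 68. HLA-DPA1 had an X box match at 99 bases and no match to the Y box core after it.

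Promoter windows were found for 27 of the 33 members, 13 of class II (18 windows, since a gene can have several starts) and 14 of class I (21 windows), and the 250 bases before the start were searched on both strands. A gene was counted where any of its windows held a match. The X box letters were in 7 of the 13 class II members and 2 of the 14 class I members, against 14.94% of all 27305 genes with a window (12.34% of 35116 windows). The full Y box letters were in 4 class II members (HLA-DMA, HLA-DQB1, HLA-DRB1 and RFX5) and 5 class I members (B2M, HLA-B, HLA-C, HLA-F and HLA-G), against 4.59% of all genes (3.81% of windows); its core ATTGG, which every full match contains, was in 10 and 8 members, against 37.0% of genes (32.01% of windows). The interferon-stimulated letters GAAANNGAA were in 5 class II and 7 class I members, against 8.41% of genes (6.88% of windows), and the kappa-B letters GGGNNTTCC in 1 and 5 members, against 7.01% (5.78%). An X box followed by a Y box core on the same strand, 30 to 40 bases from start to start, was in 43 windows of 43 genes (0.122% of windows and 0.157% of genes); 5 of these genes were members, at a spacing of 33 bases in HLA-DRB1 and HLA-DQB1 and 34 in HLA-DQA1, HLA-DMA and HLA-DOA. That spaced search was chosen after the single matches were seen. The 3 called genes held the pair, and so did HLA-DMA and HLA-DOA, which were not called. No window was found for CIITA, CTSS, HLA-DRA, HLA-E, NLRC5 or PDIA3. HLA-DRA, a class II chain that was not called, was therefore not searched for the pair. A match is a description of letters and not a bound site.

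As a check of the series, the 8 array medians lay between 5.47 and 5.62 (log2) and wild-type replicate 2 stood apart from the other arrays, with a limma array weight of 0.513. CCND1, the induced gene, read 4.98 to 5.25 with empty vector and 10.9 to 11.2 with either construct. The 7 measured B-cell markers were all above the median of all genes (5.94), with array means of 9.91 to 10.02, as were the 7 plasma cell markers at 10.9 to 11.2. None of 7 T-cell, 6 NK-cell or 8 myeloid and dendritic markers reached that median, and 0 of them were called in any comparison. Among the B-cell and plasma cell markers, CD22, an inhibitory receptor, was -0.40 with wild type (adjusted p = 0.0498), and SDC1, a plasma cell surface proteoglycan, was 0.38 (adjusted p = 0.0411). JCHAIN, the joining chain of secreted antibody, was -0.64 in T286A against wild type (adjusted p = 0.00445). The last held with any 1 array left out (adjusted p 0.0141 to 0.0264), and the CD22 and SDC1 calls were lost with any 1 left out (0.0607 to 0.251 and 0.0673 to 0.244). The part of these markers in the results below was not tested.

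With wild-type cyclin D1, 3 class II chain genes fell against empty vector: HLA-DQA1 by 29.0%, HLA-DRB1 by 27.1% and HLA-DQB1 by 23.2%. With T286A no member passed the test, and HLA-DRB1 was higher in T286A than in wild type. No gene of the class I pathway was called in any of the 4 comparisons. At an unadjusted limma p under 0.05, 2 of its 16 genes were lower with wild type (7.42% of all genes) and 2 with T286A (6.15%). A gene was called at an adjusted p under 0.05, from limma with the Benjamini-Hochberg adjustment over all 18231 genes, and differences are on the log2 scale ± SE. Values are RMA log2 expression values. RMA equalises the distributions of the arrays before it summarises probe sets, so a difference is relative to the other genes. The medians of the summarised values still ran from 5.47 to 5.62 between arrays. Fewer cells expressing a gene cannot be told apart from less RNA per cell.

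Against the background of each comparison, wild type had 3 of 32 members called, all lower, where 1.74% of all genes were called in either direction. For both constructs together against empty vector it was 1 of 32, HLA-DQA1, where 1.4% of all genes were called. T286A had 0 of 32 members called, where the background was 0.532%, and T286A against wild type had 1 of 32, HLA-DRB1, where it was 0.987%. At an unadjusted limma p under 0.05, 8 of 32 members were lower with wild type (7.42% of all genes), 7 with both constructs together (6.74%) and 5 with T286A (6.15%). The last 2 counts stand beside 1 member, RFXAP, that was higher in each. At that threshold 4 members were higher in T286A than in wild type (7.16% of all genes) and 1 was lower. A single called gene, as with both constructs together or between the constructs, is too few to set apart from its background.

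HLA-DRB1 encodes the beta chain that pairs with HLA-DRA in the HLA-DR molecule. Its 2 empty-vector arrays read 11.54 and 11.52, the 3 wild-type arrays 11.06, 11.02 and 11.15, and the 3 T286A arrays 11.57, 11.52 and 11.55. All wild-type arrays lay below all arrays of the other groups, whose ranges overlapped each other. Wild type was -0.46 ± 0.068 against empty vector (95% interval -0.61 to -0.30, adjusted p = 0.0177). T286A was 0.01 against empty vector (95% interval -0.14 to 0.17, adjusted p = 0.963), an interval that does not reach the fall seen with wild type. The direct test gave T286A minus wild type as 0.47 ± 0.061 (95% interval 0.33 to 0.61, adjusted p = 0.0127). The call against empty vector was lost without empty vector replicate 1 (adjusted p = 0.134), empty vector replicate 2 (0.142) or wild-type replicate 1 (0.0616). The call between the constructs was lost without T286A replicate 1 (0.0581), 2 (0.0549) or 3 (0.0631) or wild-type replicate 1 (0.0551), with a difference of 0.44 to 0.51 over all 8 omissions.

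HLA-DQA1, the alpha chain of HLA-DQ, read 11.97 and 12.04 with empty vector, 11.49, 11.49 and 11.55 with wild type, and 11.81, 11.82 and 11.74 with T286A. The groups did not overlap, with empty vector highest, T286A between and wild type lowest. Wild type was -0.49 ± 0.066 against empty vector (95% interval -0.65 to -0.34, adjusted p = 0.0129). T286A was -0.22 ± 0.066 against empty vector (95% interval -0.37 to -0.06, unadjusted p = 0.0111, adjusted p = 0.222) and 0.28 ± 0.059 against wild type (adjusted p = 0.088), neither past the threshold. Both were called with an intensity trend in the variance and a robust prior (adjusted p = 0.00981 and 0.000578). The difference from wild type was also called when only genes at or above the median level were tested (adjusted p = 0.021). Both constructs together were -0.35 ± 0.059, which is 21.8% lower (adjusted p = 0.0331). The wild-type call was lost without empty vector replicate 1 (adjusted p = 0.0919) or 2 (0.133), and the call for both constructs was lost without any 1 of the 8 arrays (0.0529 to 0.312).

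HLA-DQB1, the beta chain of HLA-DQ, read 10.27 and 10.26 with empty vector, 9.91, 9.92 and 9.82 with wild type, and 10.14, 10.12 and 10.21 with T286A. The order of the groups was that of HLA-DQA1, again without overlap. Wild type was -0.38 ± 0.067 against empty vector (95% interval -0.53 to -0.23, adjusted p = 0.0325). T286A was -0.11 ± 0.067 against empty vector (adjusted p = 0.589) and 0.27 ± 0.060 against wild type (adjusted p = 0.1). The latter was called with only genes at or above the median level tested (adjusted p = 0.0248) and with the intensity trend and robust prior (0.00739). Its call with wild type against empty vector was the least firm of the 3. That call was lost without any 1 of the 8 arrays (adjusted p 0.0569 to 0.209) and with arrays centred on their medians (-0.31, adjusted p = 0.0934). It was also lost with the mean of all its probe sets (-0.15, adjusted p = 0.319).

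**Figure D1:**
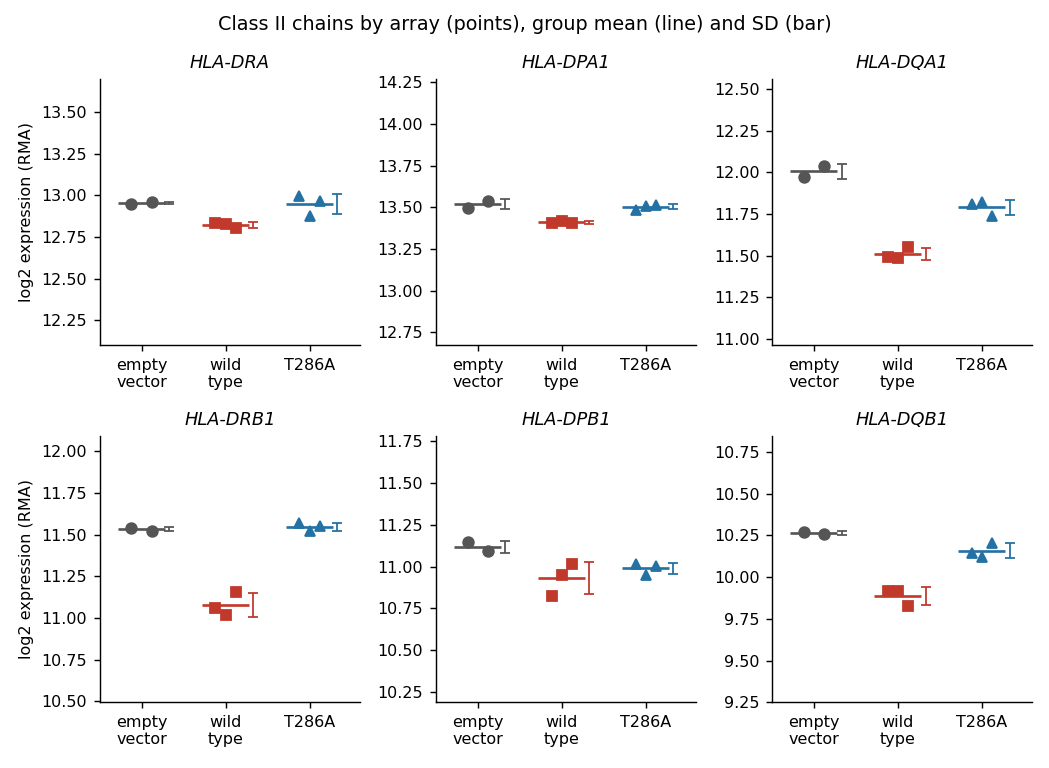
RMA log2 values of the 6 class II chain genes by group, 1 panel per gene; points are arrays (2 empty vector, 3 wild type, 3 T286A), lines are group means and bars are SD. The panels span the same log2 range at different levels; the wild-type arrays of HLA-DRB1, HLA-DQA1 and HLA-DQB1 lie below all other arrays.

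The other 3 class II chains were not called, though with wild type their differences had the same sign as those of the called genes. HLA-DPB1, the beta chain of HLA-DP, read 11.15 and 11.09 with empty vector, 10.82, 10.95 and 11.02 with wild type, and 11.01, 10.95 and 11.00 with T286A. Both constructs lay below empty vector and overlapped each other, with differences of -0.19 ± 0.076 for wild type (adjusted p = 0.323) and -0.13 ± 0.076 for T286A (adjusted p = 0.563). HLA-DRA, the alpha chain of HLA-DR, read 12.95 and 12.96 with empty vector, 12.84, 12.83 and 12.80 with wild type, and 13.00, 12.88 and 12.96 with T286A. Its wild-type arrays were the lowest, at -0.13 ± 0.065 against empty vector (adjusted p = 0.445), while T286A was at -0.01 (adjusted p = 0.983). HLA-DPA1, the alpha chain of HLA-DP, was at -0.11 with wild type (adjusted p = 0.5) and -0.02 with T286A (adjusted p = 0.957). Over the 6 chains the median difference was -0.28 with wild type, with all 6 negative, and -0.06 with T286A, with 5 negative; T286A against wild type had a median of 0.20 with all 6 positive, or 0.13 with 5 positive when arrays were centred on their medians. In that same comparison all 7 plasma cell markers were negative, with a median of -0.20, where 49.95% of all genes were negative. At an unadjusted limma p under 0.05, 5 of the 7 were lower, against 1178 of all 18231 genes. The array means of these markers were 11.1 to 11.2 with wild type and 10.9 to 11.0 with T286A. The part of this plasma cell marker shift in the class II values was not tested. The medians of all genes lay within 0.01 of 0, and 49.5% of genes were negative with wild type. Both comparisons with empty vector use the same 2 control arrays, and the comparison between the constructs reuses their 6 arrays.

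Of the 6 genes of class II peptide loading, 0 were called in any comparison. At an unadjusted limma p under 0.05, 1 was lower with wild type (7.42% of all genes) and 1 with T286A (6.15%). The median difference of the 6 was -0.14 with wild type, or -0.08 with arrays centred on their medians, and -0.18 with T286A. HLA-DMB, the beta chain of the peptide exchanger HLA-DM, read 7.32 and 7.27 with empty vector, 7.15, 7.66 and 7.27 with wild type, and 6.84, 6.96 and 6.75 with T286A. All T286A arrays lay below all others, and the wild-type arrays spanned the empty-vector values. T286A was -0.45 ± 0.142 against empty vector (unadjusted p = 0.0128, adjusted p = 0.237) and -0.51 ± 0.127 against wild type (adjusted p = 0.134). Wild-type replicate 2 was the highest array; without it, wild type against empty vector changed from 0.06 to -0.09 and T286A against wild type was -0.36 (adjusted p = 0.141). CD74, the invariant chain, read 11.87 and 11.92 with empty vector, 11.77, 11.60 and 11.74 with wild type, and 11.77, 11.89 and 11.86 with T286A. Its wild-type arrays lay below empty vector, at -0.20 ± 0.077 (unadjusted p = 0.0342, adjusted p = 0.316), and T286A, at -0.06 (adjusted p = 0.844), overlapped empty vector.

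HLA-DMA, the alpha chain of HLA-DM, was at -0.08 with wild type and -0.17 with T286A, and CTSS, the protease that trims CD74, at -0.09 and -0.18. Among the peptide loading genes, the HLA-DO genes had the largest SE in the comparisons with empty vector. HLA-DOA read 6.98 and 6.78 with empty vector and 6.88, 7.03 and 6.72 with T286A, whereas its wild-type arrays split into 6.10, 6.22 and 6.99, an SD of 0.48. HLA-DOB had differences of -0.33 with wild type and -0.28 with T286A, with 5.94 in wild-type replicate 2 against 5.17 and 5.42 in the other wild-type arrays.

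None of the 4 transcription factors of the class II genes was called. CIITA, the class II coactivator, read 6.58 and 6.19 with empty vector, 6.45, 6.56 and 6.20 with wild type, and 6.56, 6.51 and 6.39 with T286A. The groups overlapped, and its 95% interval of -0.30 to 0.34 for wild type against empty vector leaves room for a change in either direction. RFXANK, a subunit of the RFX complex, read 9.04 and 8.96 with empty vector, 8.62, 8.75 and 8.88 with wild type, and 8.67, 8.66 and 8.69 with T286A. Both constructs lay below empty vector, at -0.25 ± 0.085 for wild type (adjusted p = 0.238) and -0.32 ± 0.085 for T286A (unadjusted p = 0.00484, adjusted p = 0.155), the latter past the threshold when only genes at or above the median level were tested (adjusted p = 0.0497). RFXAP, another RFX subunit, went the other way: it read 8.29 and 8.22 with empty vector, 8.26, 8.50 and 8.32 with wild type, and 8.47, 8.52 and 8.52 with T286A. Its T286A arrays lay above empty vector by 0.25 ± 0.085 (unadjusted p = 0.019, adjusted p = 0.283). RFX5, the DNA-binding subunit, was at -0.01 with wild type and -0.10 with T286A.

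**Figure D2:**
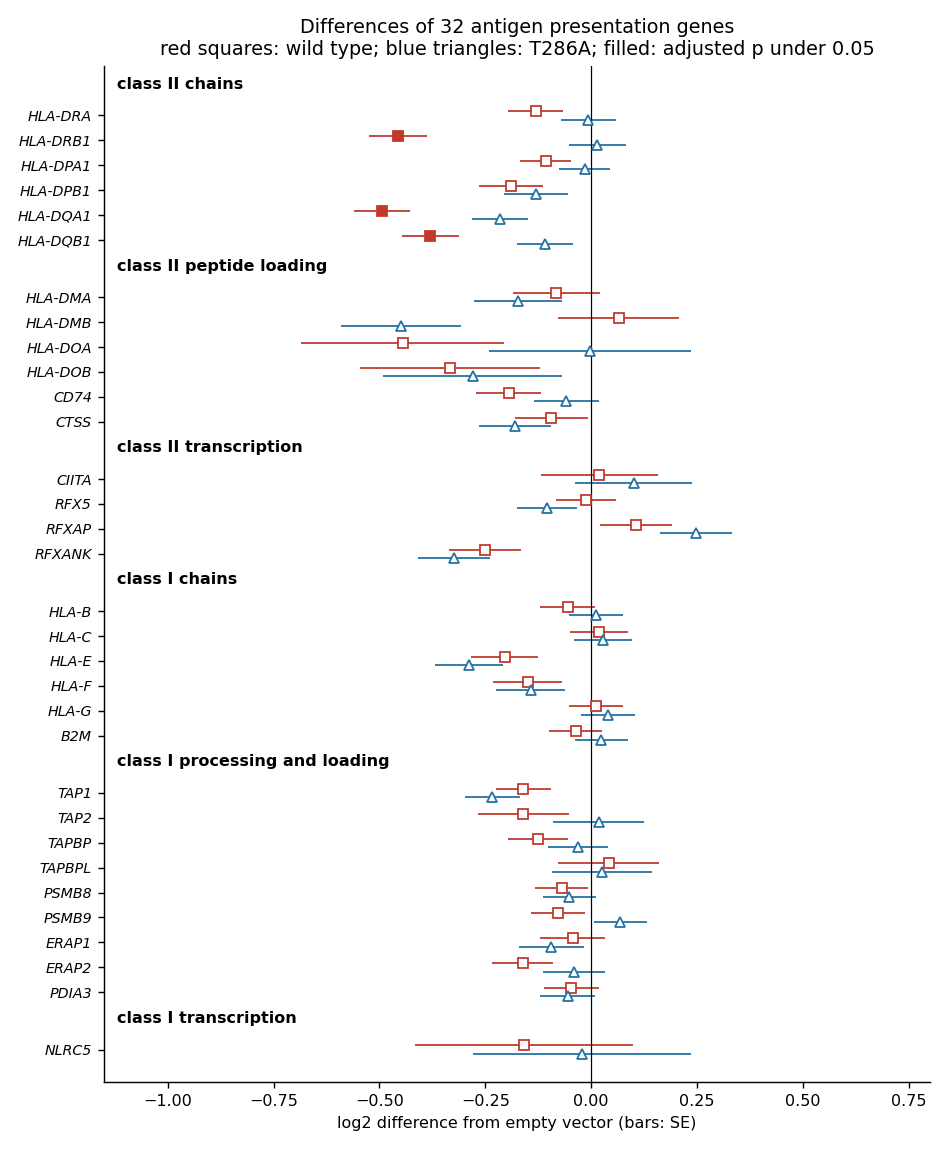
Log2 difference from empty vector of the 32 measured members, by role; red squares are wild type, blue triangles T286A, bars are SE, and filled symbols have an adjusted p under 0.05. The 3 filled symbols are HLA-DRB1, HLA-DQA1 and HLA-DQB1 with wild type, and no class I gene is filled.

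Of the 6 class I chains 0 were called, with a median difference of -0.05 with wild type, or 0.02 with arrays centred on their medians, and of 0.02 with T286A. HLA-B, a classical heavy chain, read 13.67 to 13.79 on all 8 arrays and HLA-C, another, 12.72 to 12.86, with differences between -0.06 and 0.03 for either construct. Their 95% intervals with wild type ran from -0.20 to 0.09 and from -0.14 to 0.17. B2M, the light chain, read 14.03 to 14.15. Each array's brightest value was 14.5, so HLA-B and B2M, and to a lesser degree HLA-C, lay near the top of the scale, where differences can be compressed. The class II chains HLA-DPA1 and HLA-DRA share this limit. HLA-G, a heavy chain best known from placenta, read 6.33 to 6.45.

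HLA-E, a heavy chain that presents leader peptides to NK-cell receptors, read 11.79 and 11.85 with empty vector, 11.64, 11.71 and 11.49 with wild type, and 11.56, 11.51 and 11.52 with T286A. Both constructs lay below empty vector, at -0.20 ± 0.079 for wild type (adjusted p = 0.31) and -0.29 ± 0.079 for T286A (unadjusted p = 0.00624, adjusted p = 0.169), and were called lower with an intensity trend in the variance (adjusted p = 0.0477 and 0.00666). HLA-F, another non-classical heavy chain, read 12.13 and 11.91 with empty vector, 11.81, 11.89 and 11.91 with wild type, and 11.86, 11.89 and 11.88 with T286A. Its differences of -0.15 ± 0.082 and -0.14 ± 0.082 (adjusted p = 0.489 and 0.553) were smaller, -0.04 and -0.03, without empty vector replicate 1, the single high array.

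Of the 9 measured genes of class I peptide processing and loading, 0 were called. With wild type 8 had negative differences (median -0.08), or 6 with arrays centred on their medians (median -0.01). With T286A 6 were negative under either scaling (median -0.04). Of all genes, 49.5% were negative with wild type and 50.9% with T286A. TAP1, 1 of the 2 subunits of the peptide transporter, read 11.45 and 11.38 with empty vector, 11.20, 11.29 and 11.28 with wild type, and 11.18, 11.19 and 11.18 with T286A. Empty vector was above both constructs without overlap, with differences of -0.16 ± 0.065 for wild type (adjusted p = 0.325) and -0.23 ± 0.065 for T286A (unadjusted p = 0.00642, adjusted p = 0.171); the T286A difference was called when only genes at or above the median level were tested (adjusted p = 0.0406). PSMB9, an immunoproteasome subunit encoded beside TAP1, read 11.27 and 11.33 with empty vector, 11.22, 11.19 and 11.25 with wild type, and 11.39, 11.39 and 11.33 with T286A. The groups did not overlap, with wild type lowest and T286A highest, though the nearest T286A and empty-vector arrays both round to 11.33; T286A minus wild type was 0.15 ± 0.057 (unadjusted p = 0.0306, adjusted p = 0.314). TAP2, the other transporter subunit, was at -0.16 with wild type and 0.02 with T286A. The tapasin gene TAPBP, the aminopeptidase ERAP2 and the immunoproteasome subunit PSMB8 were at -0.13, -0.16 and -0.07 with wild type, and at -0.03, -0.04 and -0.05 with T286A. TAPBPL, a tapasin relative, the aminopeptidase ERAP1 and the oxidoreductase PDIA3 lay between -0.09 and 0.04 with either construct. The 3 probe sets that PSMB10 shares with CTRL gave -0.07 to -0.03 with wild type and cannot be credited to either gene.

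NLRC5, the class I coactivator, read 9.10 and 8.88 with empty vector, 8.53, 9.40 and 8.57 with wild type, and 8.76, 9.22 and 8.93 with T286A. The groups overlapped and wild-type replicate 2 was the highest of all arrays, giving a wild-type difference of -0.16 ± 0.257 (adjusted p = 0.859). Without that array the difference was -0.44 (adjusted p = 0.25), so this gene was not measured precisely enough to place it.

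**Figure D3:**
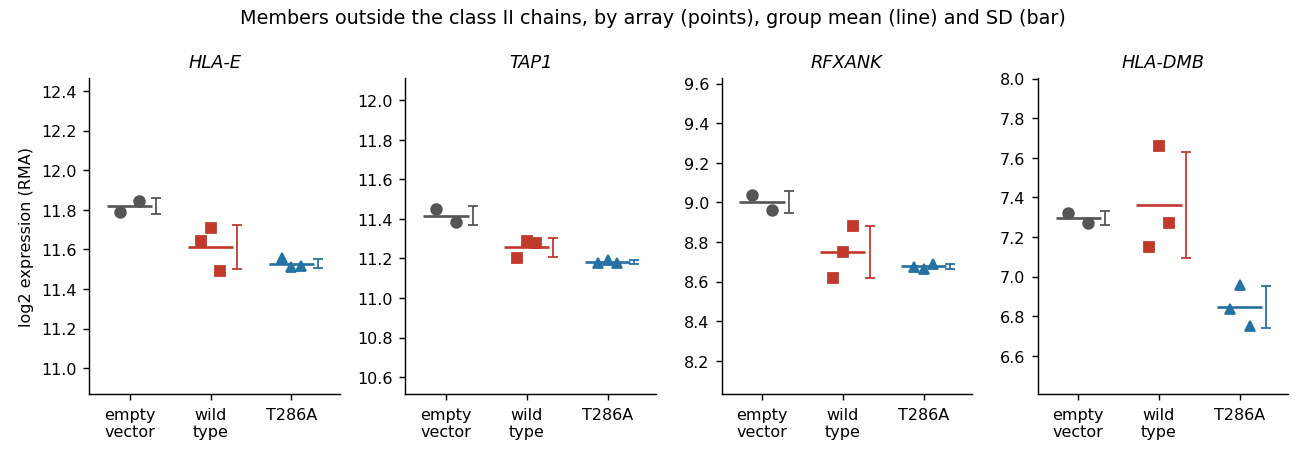
RMA log2 values of HLA-E, TAP1, RFXANK and HLA-DMB by group; points are arrays, lines are group means and bars are SD. HLA-E, TAP1 and RFXANK are highest with empty vector, HLA-DMB is lowest with T286A, and none of the 4 was called.

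Set side by side, the 16 class II members had a median difference of -0.16 with wild type and the 16 class I members one of -0.07, with 13 of 16 negative in each, or 12 and 9 with arrays centred on their medians. With T286A the medians were -0.11 and -0.03, with 13 and 9 members negative, and T286A against wild type gave 0.09 and 0.02. The medians of both pathways depended on the scaling. With arrays centred on their medians, class II was at -0.09 with wild type and 0.02 in T286A against wild type (0.01 with the mean of all probe sets), and class I at -0.01 and -0.04. Without T286A replicate 1 the class I median with T286A was 0.02. The difference between the pathways was not itself tested.

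In the order of the RefSeq annotation, 18 protein-coding genes run from HLA-DRA to HLA-DPB1, and the 3 called genes occupy places 3, 4 and 5. Their measured neighbours were not called: HLA-DRB5 was at -0.16 with wild type (adjusted p = 0.588) and HLA-DQA2, a gene with a dim probe set, at 0.11 (adjusted p = 0.749). The genes between the HLA-DQ and HLA-DP pairs include HLA-DOB, TAP2, PSMB8, TAP1, PSMB9, HLA-DMB, HLA-DMA and HLA-DOA, all members and all uncalled. Of these, HLA-DOA was at -0.45 ± 0.239 with wild type (adjusted p = 0.482) and HLA-DOB at -0.33 ± 0.212 (adjusted p = 0.562). These differences were near those of the called genes in size, with a larger SE. The other members there ran from -0.16 (TAP2) to 0.06 (HLA-DMB). BRD2, a bromodomain gene that is no presentation gene, was at 0.01 (adjusted p = 0.986).

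**Figure D4:**
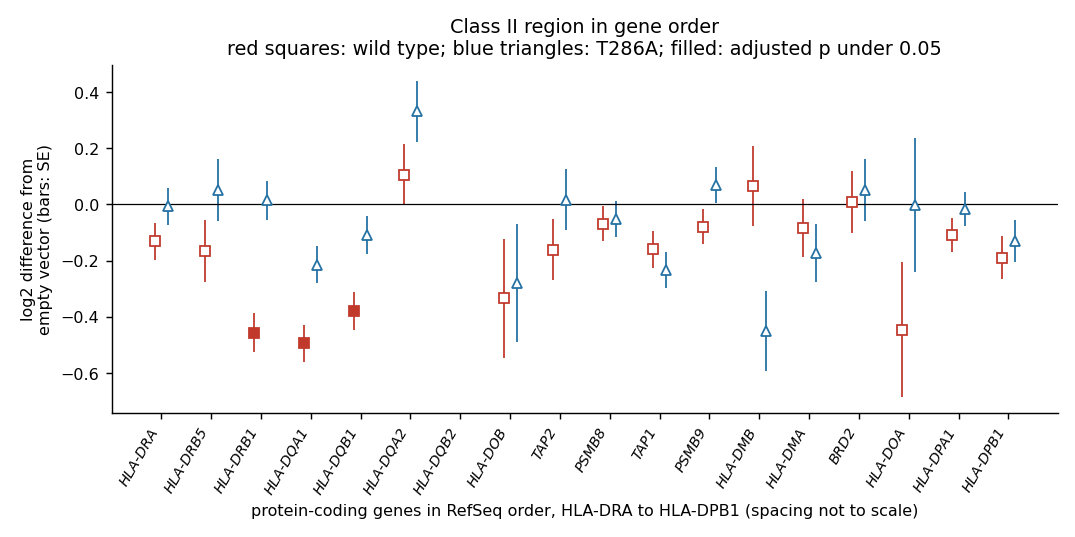
Log2 difference from empty vector of the genes from HLA-DRA to HLA-DPB1 in RefSeq order, evenly spaced; red squares are wild type, blue triangles T286A, bars are SE, and filled symbols have an adjusted p under 0.05. The filled symbols are the neighbours HLA-DRB1, HLA-DQA1 and HLA-DQB1; HLA-DQB2 was not measured.

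HLA genes are near copies of one another and differ between people, so a probe set can read a relative or miss the allele of a line. The 4 bright HLA-DQA1 probe sets, with empty-vector means from 9.39 to 12.01, gave wild-type differences of -0.54 to -0.41, and each was called when all probe sets were tested on their own (adjusted p 0.0232 to 0.046). The 2 dim ones, with means of 4.25 and 4.12, gave 0.07 and 0.01. For HLA-DQB1 the wild-type difference was -0.38 for the brightest of its 8 probe sets and -0.30 and -0.17 for the next ones. The mean of all 8 gave a smaller difference of -0.15 (adjusted p = 0.319). HLA-DRB1 had 1 probe set of its own, and a probe set shared by HLA-DRB1, HLA-DRB3, HLA-DRB4 and HLA-DRB5 gave a like pattern: -0.37 with wild type (adjusted p = 0.07), a value that rounds to 0 with T286A (adjusted p = 0.994) and 0.37 between the constructs (adjusted p = 0.0614). The probe set shared by HLA-DRB3 and HLA-DRB5 was at -0.30 with wild type and -0.02 with T286A. Which HLA-DRB gene was read cannot be told apart here, and the probe set shared by HLA-DQA1 and HLA-DRA was at -0.33 with wild type and -0.27 with T286A. The 6 HLA-E probe sets ran from -0.25 to 0.01 with wild type and from -0.47 to -0.04 with T286A.

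Tested one by one, 5 of the 132 probe sets of members were called with wild type, in HLA-DQA1 and HLA-DRB1, where 0.798% of all 48854 probe sets were called. For T286A against wild type 1 was called, in HLA-DRB1, where the background was 0.526%. None was called with T286A alone or with both constructs together.

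**Figure D5:**
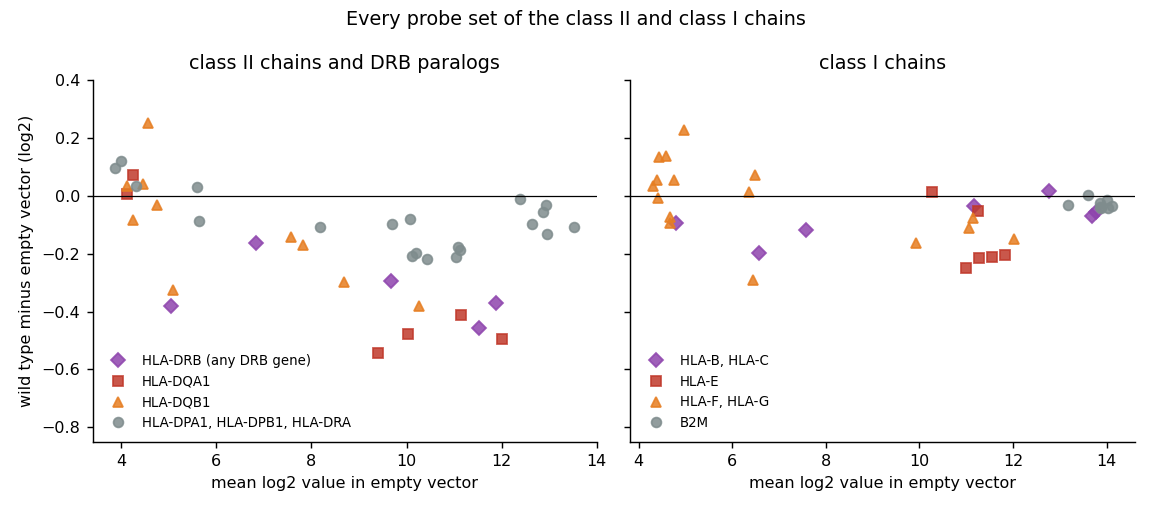
Wild type minus empty vector (log2) of every probe set of the class II chains and HLA-DRB relatives, left, and of the class I chains, right, against the mean log2 value in empty vector. Bright HLA-DQA1 and HLA-DRB probe sets lie lowest, most dim probe sets scatter around 0, and the bright HLA-B, HLA-C and B2M probe sets lie near 0.

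Related genes were counted from lists drawn up by role. Among 14 measured other genes of class II processing, CD83 alone was called: this surface protein, which protects class II molecules from ubiquitination, read 9.31 and 9.45 with empty vector, 8.88, 8.56 and 8.73 with wild type, and 8.89, 8.78 and 8.87 with T286A. Both constructs lay below empty vector, at -0.65 ± 0.102 with wild type (adjusted p = 0.0215) and -0.53 ± 0.102 with T286A (adjusted p = 0.0697). That is 1 of 14 called with wild type, where 1.74% of all genes were called. The wild-type call was held in 5 of 8 omissions of 1 array and lost without wild-type replicate 3 or either empty-vector array (adjusted p up to 0.198). Of 15 other class I processing genes and 10 other presenting molecules, 0 were called in any comparison, and the smallest adjusted p values over the 4 comparisons were 0.415 and 0.163. Of the 4 measured class II paralogs 0 were called. HLA-DRB4 came nearest, at -0.38 with wild type (adjusted p = 0.0722). Its probe set was dim, with means of 5.05 with empty vector and 4.67 with wild type, below the median of all genes (5.94).

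Among 14 measured regulators of interferon and NF-kappa-B signalling, RELB and NFKB2, partners in the alternative NF-kappa-B pathway, fell with wild type by 0.46 ± 0.084 (adjusted p = 0.0399) and by 0.45 ± 0.084 (adjusted p = 0.0409). With wild type 2 of the 14 were called lower and 1, JAK1, higher, where 1.74% of all genes were called in either direction. The call of RELB was lost with any 1 array left out (adjusted p 0.0523 to 0.274) and that of NFKB2 with any but wild-type replicate 3 (up to 0.244). With T286A they were at -0.49 (adjusted p = 0.0546) and -0.34 (adjusted p = 0.137), and neither differed between the constructs past the threshold (adjusted p = 0.891 and 0.542). JAK1, a kinase of the interferon receptors, read 8.79 and 8.99 with empty vector, 9.39, 9.39 and 9.49 with wild type, and 8.72, 8.73 and 8.71 with T286A. Its wild-type arrays lay above all others, 0.53 ± 0.079 over empty vector (adjusted p = 0.0173), and T286A was -0.70 ± 0.070 against wild type (adjusted p = 0.00445), which held with any 1 array left out (adjusted p 0.00707 to 0.028). The JAK1 call against empty vector was lost without wild-type replicate 1, wild-type replicate 3 or either empty-vector array (up to 0.132). Among 11 genes of T-cell costimulation, CD40, the receptor through which T cells activate B cells, and the adhesion molecule ICAM1 were called lower with each construct. Of all genes 1.74% were called with wild type and 0.532% with T286A. Of the 11 genes, 10 were negative with wild type (median -0.25) and 9 with T286A (median -0.13), where 49.5% and 50.9% of all genes were negative. At an unadjusted limma p under 0.05, 7 were lower with wild type (7.42% of all genes) and 4 with T286A (6.15%). CD40 was at -0.68 with wild type (adjusted p = 0.00345) and -0.51 with T286A (adjusted p = 0.0288), and ICAM1 at -0.62 with both (adjusted p = 0.0129 and 0.0315). Their wild-type calls were lost without either empty-vector array (adjusted p up to 0.0514 for CD40 and 0.133 for ICAM1), and their T286A calls held only without wild-type replicate 2 (up to 0.213 and 0.268 otherwise). Neither was called between the constructs (adjusted p = 0.254 and 0.99), in contrast to HLA-DRB1 and JAK1, which were.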

How the data were processed

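RNA from 8 JVM13 samples was hybridised to Affymetrix human expression arrays. The values the authors deposited are on the log2 scale; the submitters' processing notes name RMA (robust multi-array average) and R 3.5.0. The method removes background, equalises the distributions of the arrays and summarises each probe set, which hides changes in total mRNA per cell and shrinks differences of dim probe sets. They carry no detection call, scan dates were not used here, and precision is limited by how few arrays there are.

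Of 48854 probe sets left without 10 controls, 45220 were annotated to 1 gene, 1325 to several and 2309 to none, by the array's platform annotation. For each of 18231 genes the brightest probe set on average was kept. Groups came from the sample titles. In limma 3.58.1 (under R 4.3.3), lmFit and eBayes fitted 1 mean for each group to all 8 arrays (5 residual and 3.27 prior degrees of freedom, two-sided tests), without an intensity filter, in 4 comparisons. The fit was tested on simulated data. The members and gene lists were chosen with earlier results of these data known. Values of every array are given for members called in any comparison and for up to 2 more per role with the smallest unadjusted p; other members are given by differences or ranges, and called genes of the related lists are named.

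Alternatives were the mean of a gene's probe sets, every probe set, a filter on dim genes, arrays centred on their medians, array weights, an intensity trend with a robust prior, only the groups compared, a replicate block, and omission of each array; centring on 20 housekeeping genes was added after the data were seen. Promoter sequences were taken from RefSeq (GRCh38.p14).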

Additional observations from a re-analysis of the deposited data

Results flagged for a closer look

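Groups of 2 or 3 arrays are too small for the check on single far samples, so only differences between the constructs were examined, with the T286A against wild type comparison as the test. HLA-DRB1 differed by 0.47 (T286A minus wild type, adjusted p = 0.0127). JAK1, counted among the interferon and NF-kappa-B regulators, differed by -0.70 (adjusted p = 0.00445). JCHAIN, counted among the plasma cell markers, differed by -0.64 (adjusted p = 0.00445), with 11.43, 11.34 and 11.36 with wild type, 10.75, 10.65 and 10.80 with T286A, and 11.14 and 11.19 with empty vector. All 3 wild-type arrays lay outside the range of the T286A arrays in each of the 3 genes. The cause was not tested.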

How the results depend on the processing

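The differences of HLA-DRB1, HLA-DQA1 and HLA-DQB1 with wild type kept their sign under every alternative run, while the number of members called did not hold. For wild type against empty vector (3 members) the number was 6 with an intensity trend and robust prior (adding CD74, HLA-DPA1 and HLA-E), 0 in a fit of only the groups compared and 0 to 2 with 1 array left out. For both constructs together (1 member) it was 0 with the mean of all probe sets, 0 with arrays centred on their medians, 0 with every probe set tested, 5 with genes at or above the median level, 6 with the intensity trend and 0 with any 1 array left out. For T286A (0 members) it was 2 with genes at or above the median level and 4 with the intensity trend. For T286A against wild type (1 member) it was 3, 6 and, with 1 array left out, 0 to 1. With the replicate block the number was 0 for both constructs together, 0 for wild type and 0 for T286A against wild type, and the block lowered the calls among all genes from 317 to 71 for wild type. Same-numbered samples of the constructs had deviations that correlated at 0.041, 0.119 and 0.0034, and 3 of the 6 construct arrays were closest to the array of their own number, so the numbers were not taken to pair samples.

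Median differences moved by more than the spread between replicates as follows. With arrays centred on their medians, class I members were at -0.0300 for both constructs, -0.00675 for wild type and -0.0425 for T286A against wild type, and class II members at -0.0929 for wild type and 0.0226 for T286A against wild type. With the mean of all probe sets, class II members were at -0.107 for both constructs and 0.0117 for T286A against wild type. With 1 array left out, the medians for both constructs ranged from -0.0716 to -0.0317 in class I and from -0.201 to -0.136 in class II, and the class I median for T286A from -0.0549 to 0.0152. Centring on housekeeping genes moved the median of all genes to at most 0.015 and no count of members by over 1.5 times. Only 2 arrays stand behind every comparison with empty vector, and dim probe sets understate changes.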
